A study of Mus musculus with 15 samples.

Results

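Immediate early transcription factors are encoded by genes that cells switch on within minutes of a stimulus, without first making new protein. Fos, Fosb, Fosl1, Jun and Junb encode subunits of the dimeric factor AP-1, Atf3 encodes a related leucine zipper protein that pairs with Jun proteins, Egr1, Egr2 and Egr3 encode zinc finger factors, and Nr4a1 encodes an orphan nuclear receptor. Growth factor signalling through ERK, with serum response factor and its partners, and calcium or cAMP signalling through CREB are known inducers of these genes. In epidermis AP-1 is known for its part in keratinocyte differentiation, wound repair and inflammation, and these genes are also known to respond to the handling of tissue. The members were the 10 genes of those names, found by gene name among the 54532 genes of a table of skin RNA levels, and each name matched 1 row.

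The skin carried the genotype labels wild type and Trpv3-knockout and was untreated or had received MC903 for 7 days, with 3 libraries in each of the 4 groups. TRPV3 is a warmth-gated calcium channel of keratinocytes, and MC903, also known as calcipotriol, is an analogue of vitamin D that causes dermatitis-like inflammation in mouse skin. The series describes conditional Trpv3 knockouts, and the labels give neither the cells that lose the gene nor a promoter driving deletion, the strain, the age or the body site. No vehicle is named for the untreated skin, so the effects of the drug and of its solvent cannot be told apart. Whether a group's libraries came from different animals is not stated, and p-values here measure the spread between libraries, which may be technical. In whole skin, fewer cells of a type and less RNA per cell cannot be told apart.

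Each library held 16869716 to 18485698 reads assigned to genes, and a member had 19 to 7854 reads in a library. Trpv3 itself read 1.13 to 2.71 FPKM in untreated wild-type skin and 2.62 to 3.64 in the untreated libraries labelled knockout, so its RNA did not bear out the label there. After MC903 it read 16.1 to 19.0 in wild type and 4.73 to 6.82 under the knockout label. FPKM is a count of fragments scaled by gene length and library size, a length-corrected level that allows genes to be compared. Log2 differences below are differences of log2(FPKM + 0.5), which understate the change of low genes, with their standard error (SE). Folds between groups are ratios of mean FPKM, so they can differ from the log2 differences. A gene was called at an adjusted p below 0.05 in limma over 17646 genes, and all 10 members were tested.

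Promoters are shown for Fos, Junb, Fosb and Nr4a1 because their genes gave the contrasting responses described below: Fos and Junb were higher after MC903 in wild-type skin, and Fosb and Nr4a1 were lower. Each run is the 250 bases before the RefSeq start of the GRCm38.p6 assembly, 5′ to 3′ on the strand of the gene. Capitals mark TGACG, the core of a CREB/ATF site, or its reverse complement CGTCA.
Fos: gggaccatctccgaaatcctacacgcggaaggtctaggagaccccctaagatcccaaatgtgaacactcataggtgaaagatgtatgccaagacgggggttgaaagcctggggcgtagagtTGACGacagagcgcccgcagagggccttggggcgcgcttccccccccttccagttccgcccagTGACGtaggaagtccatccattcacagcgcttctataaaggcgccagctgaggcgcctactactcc
Junb: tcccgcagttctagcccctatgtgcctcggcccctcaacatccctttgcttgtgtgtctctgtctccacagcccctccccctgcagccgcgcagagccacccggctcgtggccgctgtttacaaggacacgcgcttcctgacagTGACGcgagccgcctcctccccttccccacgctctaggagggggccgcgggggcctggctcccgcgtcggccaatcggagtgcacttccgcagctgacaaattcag
Fosb: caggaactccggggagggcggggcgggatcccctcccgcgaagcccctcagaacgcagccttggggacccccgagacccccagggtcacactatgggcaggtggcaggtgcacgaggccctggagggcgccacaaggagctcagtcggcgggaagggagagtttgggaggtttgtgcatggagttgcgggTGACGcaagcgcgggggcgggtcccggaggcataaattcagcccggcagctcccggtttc
Nr4a1: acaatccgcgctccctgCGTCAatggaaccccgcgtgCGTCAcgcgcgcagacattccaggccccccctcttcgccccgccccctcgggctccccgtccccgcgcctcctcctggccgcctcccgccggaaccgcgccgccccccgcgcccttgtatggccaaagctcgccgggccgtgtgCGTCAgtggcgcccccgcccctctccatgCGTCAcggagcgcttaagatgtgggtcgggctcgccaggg
These windows lie at chr12:85473640-85473889 (plus strand) for Fos, chr8:84978749-84978998 (minus) for Junb, chr7:19310046-19310295 (minus) for Fosb and chr15:101266596-101266845 (plus) for Nr4a1. The Nr4a1 window lies inside the span of the gene given below, before an internal start, and 6 bases of the Fosb window lie in a Fosb exon. TGACG began 129 and 66 bases before the start in Fos, 106 before it in Junb and 60 before it in Fosb. In Nr4a1 it stood on the other strand, at 233, 213, 69 and 40 bases before the start. The RefSeq table held 11 windows of 7 members, of which 5, in part overlapping, were of Egr2; Egr1, Egr3 and Fosl1 were not among them. TGACG was found on either strand in at least 1 window of 6 members, namely these and Egr2 and Atf3, and of 19.8% of the 27025 genes of the table. By window it was in 8 of the 11, against 17.8% of 32851 windows, and the Jun window did not hold it. The full palindrome TGACGTCA was in none of the 11 windows (1.55% of all), and the AP-1 sequence TGANTCA in none (6.75% of all). TATAAA was in the Fos window alone (12.4% of all), and a CArG box, the sequence bound by serum response factor, in 4 of the Egr2 windows and in no other member's (1.47% of all). Sequence outside these windows, and any before Egr1, Egr3 and Fosl1, was not searched, so a motif not found here may lie elsewhere. A match describes these letters only, and the same motif stood before genes that moved in opposite directions.

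The 10 genes lay on 10 chromosomes. In mm10 the deposited table placed Fos at chromosome 12, 85473890 to 85477273, Fosb at chromosome 7, 19302696 to 19310051, and Fosl1 at chromosome 19, 5447703 to 5455945. Jun was placed at chromosome 4, 95049034 to 95052222, Junb at chromosome 8, 84974484 to 84978718, and Atf3 at chromosome 1, 191170296 to 191218039. The EGR genes were at chromosome 18, 34859823 to 34864984 (Egr1), chromosome 10, 67535475 to 67542188 (Egr2), and chromosome 14, 70077203 to 70082614 (Egr3). Nr4a1 was at chromosome 15, 101254269 to 101274795. Junb shared 351 bases with Prdx2 on the other strand, and without strand the reads of that stretch cannot be told apart. Prdx2 read 42.3 to 47.2 FPKM in untreated and 62.4 to 75.5 in MC903-treated wild-type skin. Jun overlapped the antisense gene Junos, which averaged 0.512 FPKM.

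In untreated wild-type skin Jun had the highest mean level, 27.5 ± 6.96 FPKM (SD, n = 3), followed by Junb at 20.1 ± 5.90, Egr3 at 18.8 ± 4.63 and Nr4a1 at 17.6 ± 3.0. The libraries of Jun overlapped those of Junb and lay above those of Egr3 and Nr4a1, and the latter pair overlapped. A middle tier held Egr2 at 9.28 ± 2.23 and Egr1 at 8.63 ± 1.35, which overlapped, and then Fos at 5.12 ± 1.67 and Atf3 at 3.97 ± 0.639, which overlapped too. Fosl1 at 1.27 ± 0.283 and Fosb at 1.26 ± 0.543 were lowest and overlapped. After MC903 Junb led in wild-type skin at 202 ± 7.16 FPKM and Egr3 came next at 51.6 ± 1.69, with no overlap between them or with any other member. Over all 12 libraries the means ran from 2.37 FPKM for Fosb to 96.7 for Junb.

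**Figure D1:**
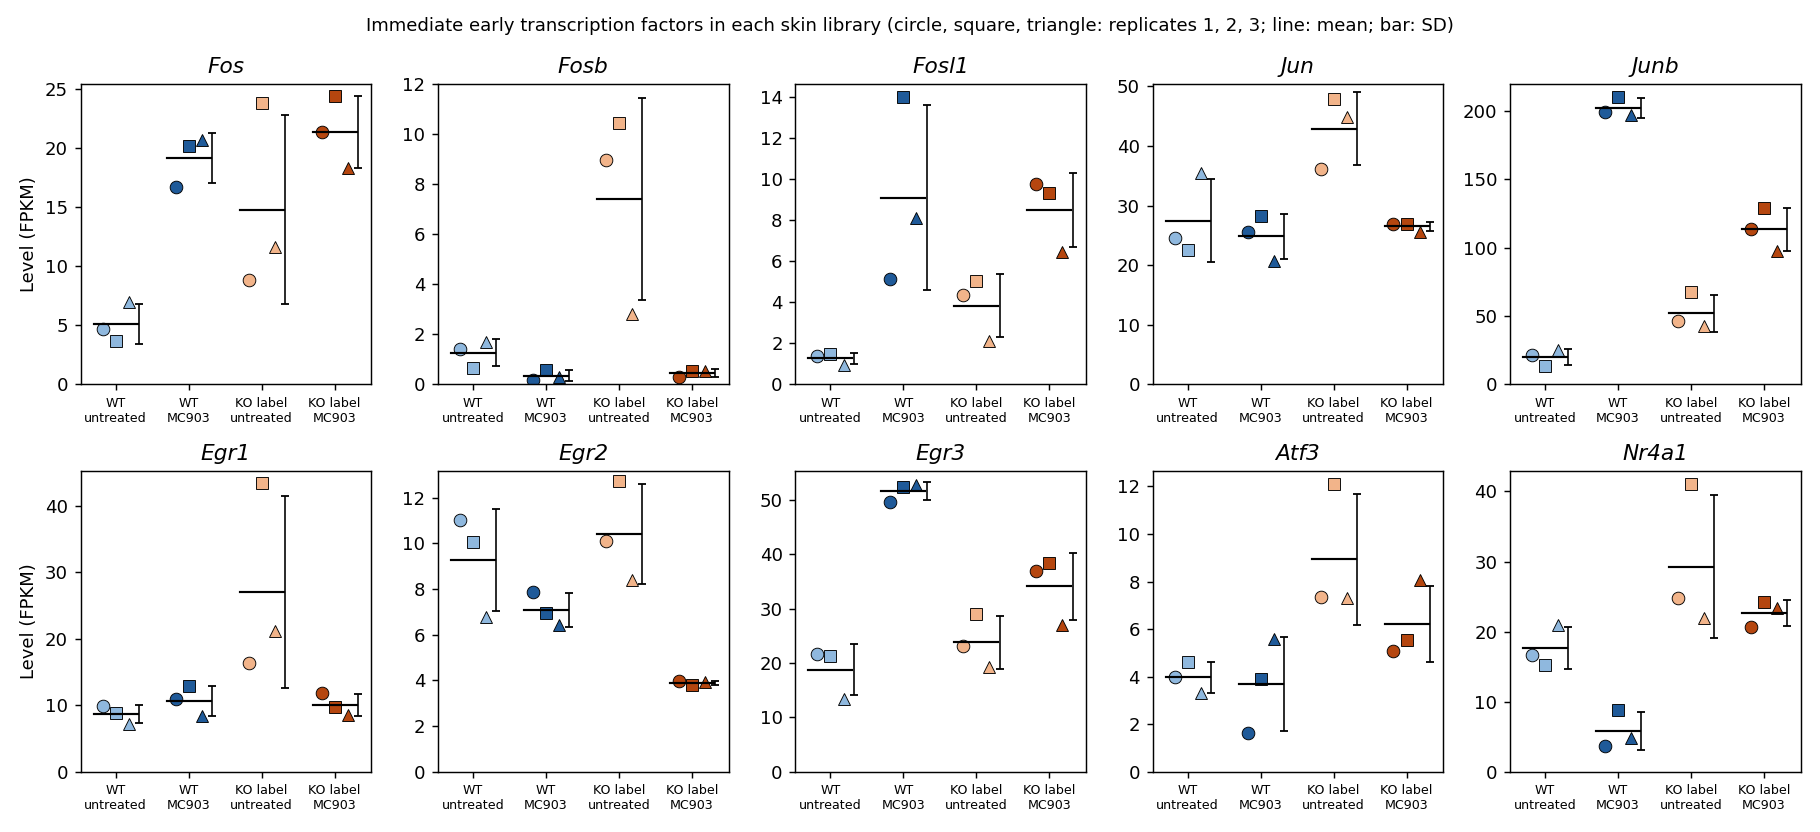
Level (FPKM, axes from 0) of each of the 10 genes in each of the 12 skin libraries, by group; circle, square and triangle are replicates 1, 2 and 3, the line is the mean and the bar the SD. Junb sits at 197 to 210 FPKM in MC903-treated wild-type skin and at 13.7 to 25.4 in untreated wild-type skin, and the square of the untreated group labelled knockout is the highest of that group in all 10 panels.

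The first comparison asked how MC903 moved these genes in wild-type skin. Junb, Fosl1, Fos and Egr3 rose and Nr4a1 and Fosb fell, while Jun, Egr1, Egr2 and Atf3 were not called. Thus 6 of 10 members were called, against 63.0% of all genes tested, so the share called was near the background and what set the members apart from one another was direction and size. Of the members 4 rose and 2 fell, against 32.6% and 30.3% of all genes, and in each of these 6 the groups did not overlap, as in 64.1% of all genes (33.0% higher and 31.1% lower). The median log2 difference of the members was 0.08, and that of all genes 0.02.

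Among the AP-1 subunits, Junb, a Jun protein that is a weaker activator than Jun itself, read 21.2, 13.7 and 25.4 FPKM in untreated replicates 1, 2 and 3 and 199, 210 and 197 after MC903. Every treated library was far above every untreated one, and the mean was 10.03-fold higher. The log2 difference was 3.34 (SE 0.22, limma adjusted p = 3e-07). Jun read 24.5, 22.5 and 35.4 FPKM untreated and 25.5, 28.2 and 20.7 treated. Its groups overlapped, with a log2 difference of -0.13 (adjusted p = 0.53). With levels rescaled to TPM, which sets every library to the same sum and lowered the median of all genes by 0.43 in this comparison, Jun passed the test at -0.60 (adjusted p = 0.0087).

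Fos, the founding member of its family, read 4.72, 3.69 and 6.96 FPKM untreated and 16.7, 20.1 and 20.6 after MC903, without overlap. Its mean was 3.74-fold higher and its log2 difference 1.84 (SE 0.31, adjusted p = 0.00031). Fosl1 encodes FRA-1, a Fos protein that lacks the transactivation domain of Fos and is known from migrating and transformed epithelial cells. It read 1.38, 1.48 and 0.950 FPKM untreated and 5.15, 14.01 and 8.13 treated. The treated replicates spread 2.72-fold among themselves and all lay above the untreated ones, with a log2 difference of 2.34 (SE 0.35, adjusted p = 0.00013). Fosb moved the other way, from 1.42, 0.659 and 1.71 FPKM to 0.182, 0.581 and 0.296. The treated and untreated ranges did not touch, but the gap between 0.581 and 0.659 was narrow. The log2 difference was -1.02 (SE 0.41, adjusted p = 0.045), and the call was lost in 8 of 15 other settings, among them leaving out untreated replicate 1 or 3 or MC903 replicate 1 or 3, each in turn (adjusted p 0.099 to 0.13).

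Of the EGR genes only Egr3 was called here, with 21.7, 21.2 and 13.4 FPKM untreated and 49.7, 52.3 and 52.8 treated. The treated libraries differed from each other by 1.06-fold and stood 2.75-fold above the untreated mean, a log2 difference of 1.46 (SE 0.20, adjusted p = 7e-05). Egr1 read 9.88, 8.81 and 7.21 FPKM and then 10.9, 12.9 and 8.38, with overlap, and its log2 difference of 0.29 (adjusted p = 0.42) became -0.18 under TPM scaling. Egr2, a regulator of Schwann cell myelination that is also made in hair follicles, read 11.02, 10.1 and 6.77 FPKM and then 7.88, 6.95 and 6.42. These ranges overlapped, with a log2 difference of -0.34 (adjusted p = 0.11). Egr2 passed as lower under TPM scaling (-0.83, adjusted p = 0.0041) and under scaling by total reads (-0.55, adjusted p = 0.025).

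Nr4a1, whose protein NUR77 is known as a factor of T cells and macrophages that restrains inflammation, read 16.7, 15.2 and 21.0 FPKM untreated and 3.71, 8.87 and 4.82 after MC903. All treated libraries were below all untreated ones, and the mean was 3.04-fold lower, with a log2 difference of -1.60 (SE 0.28, adjusted p = 0.00049). Atf3, a repressor induced by cell stress, read 3.97, 4.604 and 3.33 FPKM and then 1.61, 3.88 and 5.59. Its treated libraries lay on both sides of the untreated ones, with a log2 difference of -0.21 (adjusted p = 0.61).

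**Figure D2:**
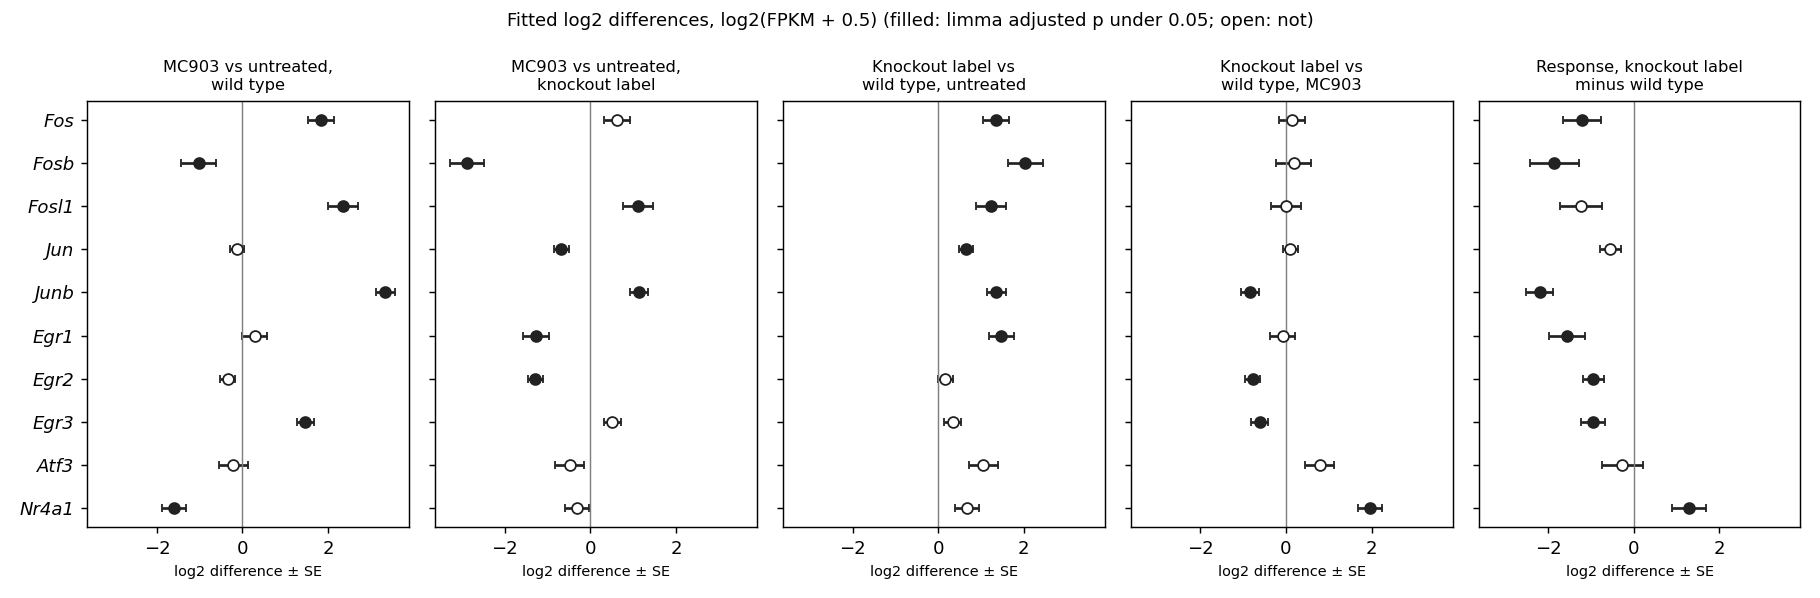
Fitted log2 differences on the log2(FPKM + 0.5) scale with SE for the 10 genes in the 5 comparisons; filled points have a limma adjusted p under 0.05. In the untreated panel all 10 points lie right of 0, while in the panel of the response difference 9 of 10 lie left of 0 and Nr4a1 lies right of it at 1.29.

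Lists of related genes, chosen with earlier results of these data known, were read beside the members. Maff, Srf and Atf4 stand in 2 lists each. Of all genes tested 32.6% rose and 30.3% fell in this comparison. Of 14 other AP-1 subunits and dimer partners 8 rose and 2 fell in this comparison, with a median log2 difference of 0.81. They included Fosl2, the FRA-2 gene, from 10.6 ± 1.05 to 29.8 ± 1.96 FPKM, and the small MAF gene Maff, from 3.87 ± 0.848 to 16.2 ± 1.68. Of 19 tested genes for other immediate early transcription factors 12 rose and 2 fell, among them Cebpb, a factor of inflammatory and acute phase genes, by a log2 difference of 2.15 (SE 0.18, adjusted p = 1.6e-06). Of 25 immediate early effectors 16 rose and 5 fell, and Ptgs2, the inducible cyclooxygenase gene, went from 0.191 ± 0.0312 to 50.02 ± 15.8 FPKM. Among 10 feedback regulators of ERK and EGR co-repressors 3 rose and 5 fell: Dusp5, an ERK phosphatase gene, rose by 3.54 on the log2 scale, and Spred1 and Spred2, inhibitors of the pathway, fell by 0.73 and 0.83. Of 18 epidermal and matrix genes known to be under AP-1 control 16 rose and none fell (limma, 0 lower at an unadjusted p below 0.05 and 0 by limma voom), with a median of 2.03. Mmp13, a collagenase gene, rose by 6.42 and Sprr1a, a cornified envelope gene, by 5.95.

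RNA of cell type markers moved in the same comparison. The summed FPKM of 8 basal keratinocyte markers went from 1737 to 2033 in untreated to 12371 to 17314 in treated wild-type libraries, with 6 called higher and 2 lower. That of 8 Schwann cell markers went from 408 to 426 down to 78.2 to 80.8, with all 8 lower, and no marker of either list was at 0 in a group. The part of these shifts in the levels of Junb, Fosl1, Egr3 or Nr4a1 was not tested.

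In skin labelled knockout the members moved to other levels after MC903. Fosb, Egr1, Egr2 and Jun fell, Junb and Fosl1 rose, and Fos, Egr3, Atf3 and Nr4a1 were not called. Again 6 of 10 were called, against 47.9% of all genes, with 2 higher and 4 lower against 25.0% and 23.0%, and the median of the members was -0.39 against -0.00 for all genes. The groups did not overlap for these 6 members, as in 63.0% of all genes (32.0% higher and 31.0% lower).

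Fosb was the largest fall among the members, from 8.96, 10.4 and 2.80 FPKM in the untreated replicates to 0.291, 0.532 and 0.545. The treated libraries were all near the level of MC903-treated wild-type skin, 16.2-fold below the untreated mean, with a log2 difference of -2.88 (SE 0.41, adjusted p = 0.0002). Egr1 went from 16.4, 43.4 and 21.1 FPKM to 11.8, 9.80 and 8.59. All treated libraries were lower, and untreated replicate 2 stood well above the others. The log2 difference was -1.27 (SE 0.29, adjusted p = 0.0046), and -0.87 (adjusted p = 0.0066) without that replicate. Egr2 went from 10.1, 12.7 and 8.40 FPKM to 3.99, 3.81 and 3.91, which were the lowest Egr2 levels of the 12 skin libraries and lay within 1.05-fold of each other. Its log2 difference was -1.29 (SE 0.18, adjusted p = 0.00016). Jun fell from 36.1, 47.9 and 44.8 FPKM to 26.9, 26.9 and 25.6, a log2 difference of -0.68 (SE 0.17, adjusted p = 0.007).

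Junb went from 46.0, 67.5 and 42.4 FPKM untreated to 113, 129 and 97.7, without overlap. The mean was 2.18-fold higher, a log2 difference of 1.14 (SE 0.22, adjusted p = 0.0014). Fosl1 went from 4.35, 5.04 and 2.11 FPKM to 9.75, 9.34 and 6.46, a log2 difference of 1.11 (SE 0.35, adjusted p = 0.021). Its groups did not overlap, but the call was lost under TPM scaling (adjusted p = 0.053). The call was also lost without untreated replicate 3 or MC903 replicate 1 or 2 (adjusted p 0.066 to 0.087). Thus 1 member rose in each of these fits, where 2873 to 3948 of 17646 genes were called higher, against 4406 in the reported fit. Fos read 8.81, 23.8 and 11.6 FPKM and then 21.3, 24.4 and 18.3, and untreated replicate 2 fell inside the treated range. Its log2 difference was 0.63 (adjusted p = 0.11), and 1.03 (adjusted p = 0.0052) without that replicate. Egr3 read 23.0, 29.0 and 19.2 FPKM and then 36.9, 38.3 and 27.0, overlapping through untreated replicate 2 and treated replicate 3, with a log2 difference of 0.51 (adjusted p = 0.053). It passed without untreated replicate 2 (0.66, adjusted p = 0.028). The count of members that rose was therefore 4 without that library, and the count that fell was 4 with and without it. Of all genes 21.6% were called higher without that library, against 25.0% with it.

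Nr4a1 read 24.8, 41.0 and 22.01 FPKM untreated and 20.6, 24.2 and 23.3 after MC903 under the knockout label. The ranges overlapped, with a log2 difference of -0.31 (adjusted p = 0.39). Atf3 overlapped likewise, at 7.37, 12.1 and 7.30 FPKM untreated and 5.07, 5.55 and 8.05 treated, with a log2 difference of -0.48 (adjusted p = 0.27). Of the related lists, 8 of 14 AP-1 subunits rose and 1 fell, 9 of 19 other immediate early factors rose and 2 fell, and 16 of 25 effectors rose and 3 fell. Of the AP-1 regulated genes 13 of 18 rose and 3 fell, and 9 of 11 genes of the ATF4 stress response rose and 1 fell, as did 9 and 1 in wild type.

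Marker RNA moved with MC903 under this label too. The 8 neutrophil markers summed to 25.9 to 187 FPKM in untreated and 2099 to 2750 in treated libraries, with all 6 tested called higher, and 2 of the 8 were at 0 throughout the untreated group. The 4 wound keratin genes went from 110.2 to 184 FPKM up to 3069 to 4475, all called higher, and 7 of 8 macrophage markers were higher. All 8 skeletal muscle markers and 7 of 8 Schwann cell markers were lower, and of 8 basal keratinocyte markers 3 were higher and 3 lower. The part of these shifts in the members' levels was not tested.

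The untreated groups were compared next, to see whether the genotype label alone went with other levels. Fos, Fosb, Fosl1, Jun, Junb and Egr1 were higher under the knockout label, none of the 10 was lower, and Egr2, Egr3, Atf3 and Nr4a1 were not called. Of the genes tested 11.7% were called, 7.15% as higher and 4.55% as lower, against 6 and 0 of 10 members. All 10 fitted differences were above 0, 8 members were higher and 0 lower at an unadjusted p below 0.05, and limma voom on recovered reads also called 6 higher and 0 lower. In 8 members, Atf3 and Nr4a1 included, every library labelled knockout lay above every wild-type library, as in 16.9% of all genes. The median log2 difference of the members was 1.14, and that of all genes 0.01.

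Egr1 had 7.21 to 9.88 FPKM in wild type and 16.4 to 43.4 under the label, a mean 3.12-fold higher. Its log2 difference was 1.48 (SE 0.29, adjusted p = 0.011). Fos was 2.88-fold higher by its means, 5.12 ± 1.67 and 14.8 ± 7.98 FPKM, with a log2 difference of 1.36 (SE 0.31, adjusted p = 0.019). Junb went from 20.1 ± 5.90 to 52.0 ± 13.6 FPKM, a log2 difference of 1.36 (SE 0.22, adjusted p = 0.0046). These are the members whose call held without replicate 2 of the untreated group labelled knockout.

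Fosb had 1.26 ± 0.543 FPKM in wild type and 7.40 ± 4.05 under the label. This 5.85-fold ratio of means was the highest of the 10 genes, with a log2 difference of 2.04 (SE 0.41, adjusted p = 0.011). The Fosb call was lost in 3 of 15 other settings, among them leaving out replicate 1 or 2 of the untreated group labelled knockout. Fosl1 went from 1.27 ± 0.283 to 3.83 ± 1.53 FPKM, a log2 difference of 1.23 (SE 0.35, adjusted p = 0.043), a call lost in 10 of 16 other settings. Jun went from 27.5 ± 6.96 to 42.9 ± 6.12 FPKM, a log2 difference of 0.65 (SE 0.17, adjusted p = 0.032), a call lost in 6 of 16. In Jun the groups were separated by the step from 35.4 to 36.1 FPKM. Atf3 was 2.25-fold higher by its means with a log2 difference of 1.05 (SE 0.34, adjusted p = 0.07), and Nr4a1 1.66-fold with 0.68 (SE 0.28, adjusted p = 0.15). Egr2 and Egr3 overlapped between the groups, with log2 differences of 0.17 (adjusted p = 0.58) and 0.34 (adjusted p = 0.29).

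One library stood apart. Replicate 2 of the untreated group labelled knockout was the highest of its group in 10 of 10 members, against 30.9% of all genes tested. It was also highest in 15 of 25 effectors, 10 of 19 other immediate early factors and 8 of 12 heat shock genes. The count was 6 of 10 in ERK feedback genes and co-repressors and 2 of 14 in other AP-1 genes. It was 3 of 16 in serum response and CREB pathway genes, 5 of 18 in AP-1 regulated genes and 3 of 11 in ATF4 genes. Replicate 2 of MC903-treated wild type was highest in 6 members and 16 effectors, against 32.1% of all genes. That of the treated knockout label was highest in 5 and 13, against 34.8% of all genes. In untreated wild type it was 2 and 4, against 35.4%. The 10 members summed to 293 FPKM in the untreated library labelled knockout and to 186 and 182 in the other replicates of its group. On a scale centred for each gene, the members averaged 0.94 in that library and -0.69 to 0.32 in the other 11. Without it 3 members were called higher, Fos at 0.96 (adjusted p = 0.046), Junb at 1.16 (adjusted p = 0.021) and Egr1 at 1.08 (adjusted p = 0.022), against 2.78% of all genes, and 7 were higher at an unadjusted p below 0.05. Without wild-type replicate 2 the count was also 3, against 4.22% of all genes. A fit of these 2 groups alone called 0 members (limma, 8 higher at an unadjusted p below 0.05), with an adjusted p of 0.054 for Junb and 0.11 for Fos. With library quality weights the fit called 8 members higher, against 20.2% of all genes, where 7.15% were called without weights. How the tissue was taken is not described in the labels, and the part of handling in these levels was not tested.

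**Figure D3:**
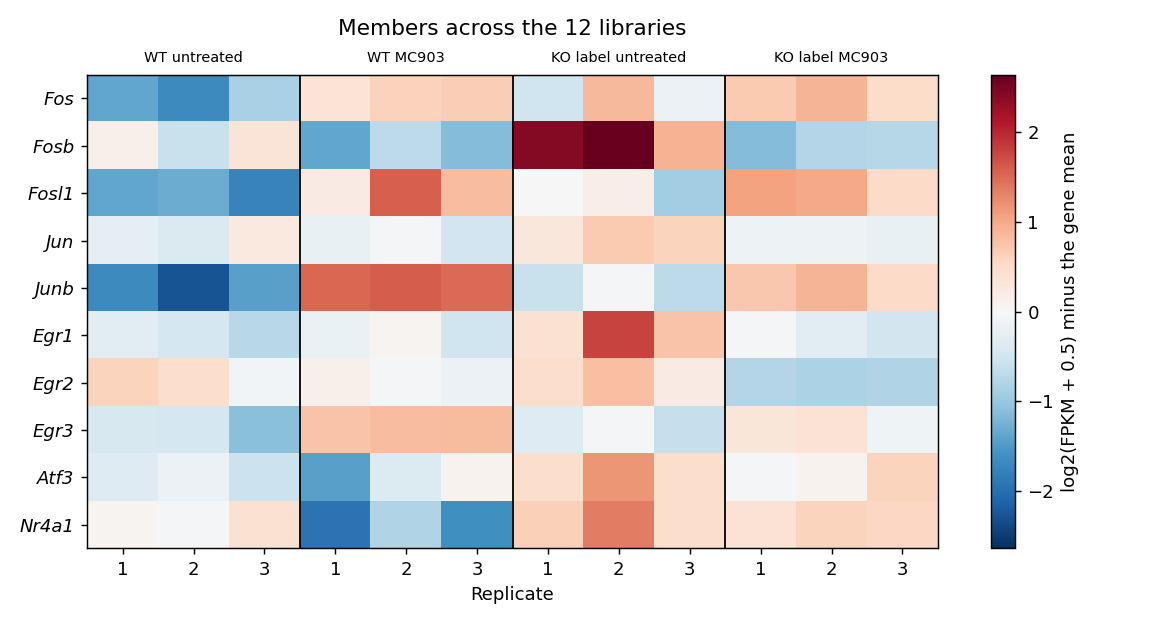
Heat map of log2(FPKM + 0.5) minus the mean of each gene, for the 10 genes (rows) in the 12 libraries (columns, by group and replicate). The column of untreated replicate 2 labelled knockout averages 0.94, and the 3 columns of untreated wild-type skin average -0.69 to -0.50.

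Some related genes were higher in the same comparison, and most were not called. Of 14 other AP-1 subunits and partners 3 were higher and 0 lower in limma (1 lower at an unadjusted p below 0.05, and 1 by limma voom). Of the 19 other immediate early factors 9 were higher and 0 lower (0 lower at an unadjusted p below 0.05 in limma and 0 by limma voom), with a median of 0.62. Ier2 went from 26.5 ± 4.47 to 48.7 ± 10.7 FPKM, Ier5 from 8.63 ± 2.19 to 16.2 ± 0.973, and Btg2, an inhibitor of proliferation, from 18.8 ± 1.81 to 31.7 ± 8.01. Of 25 effectors 9 were higher and 0 lower (1 lower at an unadjusted p below 0.05, and 1 by limma voom), among them Cyr61, a matrix signalling protein gene, from 19.6 ± 6.13 to 44.0 ± 11.2 FPKM. Zfp36, which encodes an mRNA decay factor, went from 12.1 ± 1.505 to 18.6 ± 2.19 FPKM. Upstream, 2 of 16 serum response and CREB pathway genes were higher, and one of them was Srf, with 11.99 ± 2.49 and 18.8 ± 2.44 FPKM. Heat shock genes, which also respond to stress, gave 0 calls of 12 in limma, with 2 higher and 4 lower at an unadjusted p below 0.05, and limma voom called 0 higher and 2 lower.

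Markers of other cells differed between these untreated groups too. Of 8 fibroblast markers 5 were higher under the label, with a sum of 4507 to 5207 against 1150 to 2065 FPKM in wild type, and 7 of 8 adipocyte markers were lower, with sums of 572 to 647 and 619 to 1443 that overlapped. Suprabasal keratinocyte markers summed to 3907 to 4502 against 1865 to 3085 FPKM, with 2 of 8 higher, and macrophage markers to 374 to 401 against 212 to 361, with 4 of 8 higher. Of 4 wound keratin genes 3 were higher, with a sum of 110.2 to 184 against 58.8 to 106 FPKM. Of 6 tested neutrophil markers 4 were higher, with a sum of 25.9 to 187 against 8.62 to 29.9 FPKM, and of the 8 listed 2 were at 0 throughout the untreated group labelled knockout and 1 throughout untreated wild type. The sums of 8 basal keratinocyte markers stood at 1737 to 2033 and 2023 to 2314 FPKM, with none called in limma. The part of any of these in the members was not tested.

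With MC903 on both sides, the comparison asked whether treated skin differed by label. Nr4a1 was higher under the knockout label, Junb, Egr2 and Egr3 were lower, and the other 6 members were not called. That is 4 of 10, against 52.1% of all genes, with 1 higher and 3 lower against 25.9% and 26.1%, and the median was 0.05 against -0.03 for all genes. The groups did not overlap for these 4 members, as in 62.7% of all genes (31.0% higher and 31.7% lower).

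Nr4a1 had 20.6 to 24.2 FPKM under the label and 3.71 to 8.87 in wild type. The mean was 3.92-fold higher and the log2 difference 1.96 (SE 0.28, adjusted p = 0.0002), and the call held in all 16 other settings. Its paralogs, which bind the same DNA element, were higher as well. Nr4a2 read 1.66, 1.55 and 1.497 FPKM in wild type and 4.92, 5.88 and 6.02 under the label, a log2 difference of 1.56 (SE 0.12, adjusted p = 3.7e-06). Nr4a3 read 1.12, 1.52 and 0.885 and then 3.41, 3.35 and 4.603 FPKM, a log2 difference of 1.36 (SE 0.22, adjusted p = 0.0004). In none of the 3 NR4A genes did the treated groups overlap.

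Junb read 97.7 to 129 FPKM under the label, below the 197 to 210 of wild type, with a mean 1.78-fold lower and a log2 difference of -0.84 (SE 0.22, adjusted p = 0.0076). With TPM scaling it was -0.54 (adjusted p = 0.051). Egr2 was 1.81-fold lower by its means, 3.90 ± 0.0901 against 7.08 ± 0.743 FPKM, with a log2 difference of -0.78 (SE 0.18, adjusted p = 0.0034). Egr3 was 1.51-fold lower, 34.1 ± 6.16 against 51.6 ± 1.69 FPKM, with a log2 difference of -0.61 (SE 0.20, adjusted p = 0.024). That call was lost under TPM scaling (-0.31, adjusted p = 0.26), under scaling by total reads (-0.51, adjusted p = 0.062) and in 3 fits that left out a library.

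Fos, Fosb, Fosl1, Jun and Egr1 overlapped between the treated groups, with log2 differences of -0.08 to 0.18 and adjusted p-values of 0.64 to 0.99. The sign for Fosl1 and Egr1 turned positive under TPM scaling, at 0.29 and 0.21. Atf3 read 1.61, 3.88 and 5.59 FPKM in wild type and 5.07, 5.55 and 8.05 under the label, overlapping by a little, with a log2 difference of 0.79 (adjusted p = 0.073). It passed under TPM scaling (1.14, adjusted p = 0.022), in limma voom (1.001, adjusted p = 0.041) and without wild-type replicate 3. Among the related lists, 5 of 19 other immediate early factors were higher, Nr4a2 and Nr4a3 included, and 7 were lower, among them Cebpb at -0.93 (adjusted p = 0.0012) and Hes1, a Notch target, at -0.70 (adjusted p = 0.0014). Of 14 other AP-1 subunits and partners 5 were higher and 4 lower, and of 18 AP-1 regulated genes 6 and 4. Of 25 effectors 8 were higher and 3 lower. Dusp1, a phosphatase of MAP kinases, read 16.9 ± 3.45 FPKM in wild type and 54.8 ± 5.23 under the label. Of the 10 ERK feedback genes and EGR co-repressors 6 were higher and 2 lower. Spred1, Spred2 and Spry4 were higher by 0.85, 0.69 and 0.99 on the log2 scale, and the co-repressor gene Nab2 was lower, at -0.35.

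Cell markers differed here as well: the 8 Schwann cell markers summed to 192 to 206 FPKM under the label and 78.2 to 80.8 in wild type, all 8 called higher. The 8 basal keratinocyte markers summed to 3496 to 4885 against 12371 to 17314, with 7 called lower, and macrophage markers to 673 to 1012 against 375 to 474, with 7 of 8 higher. All these markers were above 0, and their part in the levels of Nr4a1, Junb, Egr2 or Egr3 was not tested.

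The difference of the MC903 response, knockout label minus wild type, was tested as an interaction. It was below 0 for 9 of 10 members, with 6 called lower and 1 higher against 19.7% and 20.0% of all genes and 39.7% in either direction, and the median was -1.08 against -0.01 for all genes. These 4 groups are the ones compared above, so the higher untreated levels under the label enter this difference directly.

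Junb had the largest difference, at -2.20 (SE 0.31, adjusted p = 0.00039): its response was 3.34 on the log2 scale in wild type and 1.14 under the label. Egr1 differed by -1.55 (SE 0.42, adjusted p = 0.013), with responses of 0.29 and -1.27. Both calls held in all 21 other settings. Fosb differed by -1.86 (SE 0.57, adjusted p = 0.024), with responses of -1.02 and -2.88. The Fosb call was lost in 7 of 20 other settings (adjusted p up to 0.23), among them limma voom and leaving out untreated replicate 1 or 2 labelled knockout. Egr2 and Egr3 each differed by -0.95 (adjusted p = 0.012 and 0.021), both lost under TPM scaling (adjusted p = 0.066 and 0.1). The Egr3 call was also lost without untreated replicate 2 labelled knockout. Fos differed by -1.21 (SE 0.43, adjusted p = 0.046), a call lost in 13 of 21 other settings. Nr4a1 alone was called in the other direction, at 1.29 (SE 0.40, adjusted p = 0.025), with responses of -1.60 and -0.31, and the call was lost in 7 of 21 settings (adjusted p 0.051 to 0.06). Fosl1, Jun and Atf3 were not called, at -1.24 (adjusted p = 0.065), -0.55 (adjusted p = 0.091) and -0.27 (adjusted p = 0.69). Without untreated replicate 2 labelled knockout 3 members were called lower, against 6 with it, and Nr4a1 remained higher. That fit called 33.0% of all genes in either direction, against 39.7% with that library.

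Related factors gave both directions. Of 19 other immediate early factors 9 had a lower response under the label and 2 a higher one, with Ier2 at -1.47 (adjusted p = 0.00058), Cebpb at -1.67 (adjusted p = 0.00057) and Nr4a2 at 1.32 (adjusted p = 0.00022). Of 18 AP-1 regulated genes 5 were lower and 2 higher, including the envelope genes Lor at -3.67, Sprr1a at -3.19 and Ivl at -2.43. All 8 suprabasal keratinocyte markers were lower in the same test and all 8 Schwann cell markers higher, and their part in the members was not tested.

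A ratio of 2 genes within a library does not depend on how libraries are scaled. The Junb to Jun ratio was 0.864, 0.611 and 0.717 in untreated wild-type skin and 7.78, 7.44 and 9.48 after MC903. Under the knockout label it was 1.27, 1.41 and 0.947 untreated and 4.21, 4.77 and 3.81 after MC903. The 4 groups did not overlap, and their order was untreated wild type, untreated knockout label, MC903 knockout label and MC903 wild type. Junb therefore held 42.0 ± 4.22% of the summed FPKM of both genes in untreated wild-type skin and 89.1 ± 1.22% after MC903, and 54.4 ± 5.14% and 80.9 ± 1.73% under the label.

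Within the Fos family, Fosb made up 16.0 ± 4.10% of the summed FPKM of Fos, Fosb and Fosl1 in untreated wild-type skin and 28.0 ± 11.9% in the untreated libraries labelled knockout. After MC903 its share was 1.17 ± 0.445% and 1.55 ± 0.614%, with every treated library below every untreated one. The share of Fos itself was 39.8% to 72.4% untreated and 57.9% to 75.8% treated, which overlapped. The share of Fosl1 was 9.87% to 25.4% in untreated and 23.4% to 40.4% in treated wild-type skin, which overlapped, and 12.7% to 19.7% and 25.6% to 31.1% under the label, which did not. The sum of the 3 genes was 7.66 ± 1.90 FPKM in untreated wild-type skin and 26.0 ± 11.9, 28.6 ± 6.35 and 30.3 ± 4.58 in the untreated knockout-label, MC903 wild-type and MC903 knockout-label groups, and these 3 overlapped.

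**Figure D4:**
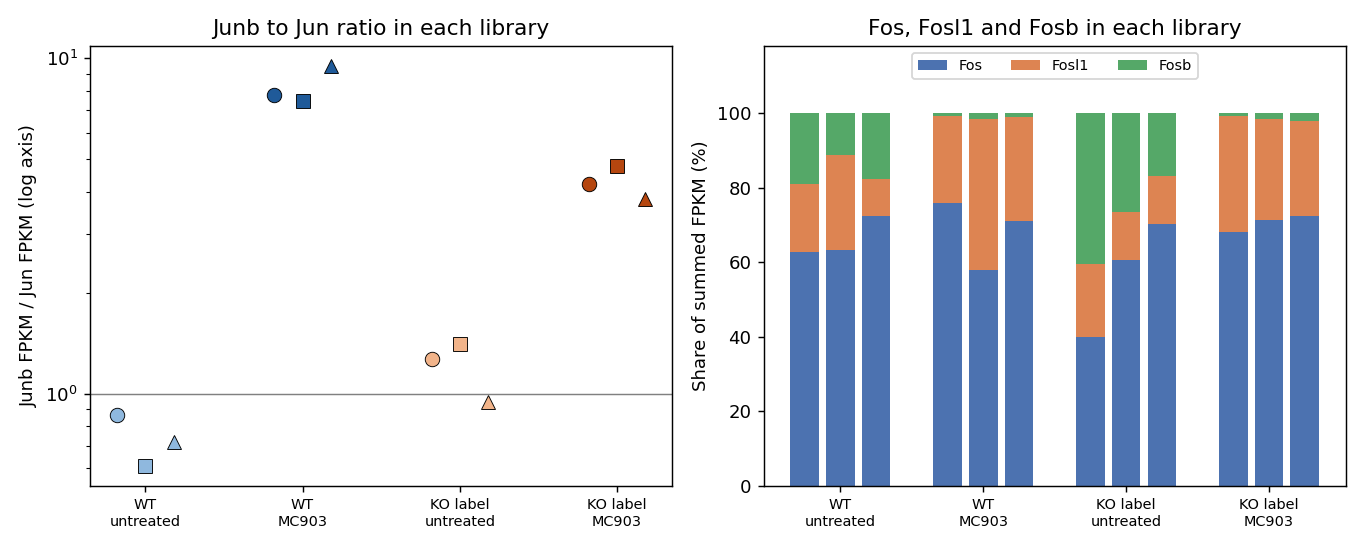
Left, the Junb to Jun ratio of FPKM in each library on a log axis, with the 4 groups apart from 0.611 to 0.864 up to 7.44 to 9.48. Right, the shares (%) of Fos, Fosl1 and Fosb in their summed FPKM in each library, where Fosb holds 11.3% to 40.5% of untreated and 0.826% to 2.16% of MC903-treated libraries.

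The members varied more between replicates than most genes did. The within-group SD of log2(FPKM + 0.5) was 0.57 for Fosb, 0.49 for Fosl1, 0.48 for Atf3, 0.43 for Fos, 0.42 for Egr1 and 0.40 for Nr4a1, at or above the percentile 88.0 of all genes tested, whose median was 0.18. Junb (0.30), Egr3 (0.28), Egr2 (0.24) and Jun (0.23) stood at percentiles 79.3, 75.6, 67.7 and 65.7. The members also differed in profile over the 12 libraries. As a root mean square difference of centred log2 values, the closest pair was Jun and Egr1 at 0.44 and the farthest was Fosb and Junb at 2.17, while Fosl1 lay at 0.53 from Fos and 0.57 from Junb.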

How the data were processed

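Poly-A RNA of 12 mouse skin libraries was analysed. The authors deposited one table of FPKM per gene, counted with featureCounts on mm10 per the submitters' processing notes; which aligner, annotation release and FPKM tool were used is not given in the sources used here. FPKM times gene length gave whole reads for 100% of values within 0.01, after 1 factor per library. The denominators so implied were 0.917 to 1.11 times the read totals, so the deposited FPKM values were taken as already scaled between libraries. Strand use is not stated. The 3 dorsal root ganglion samples of the 15 in the series were not analysed here.

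Genes with FPKM of at least 0.5 in at least 3 libraries (17646) were fitted in limma as log2(FPKM + 0.5) over the 4 groups (8 residual degrees of freedom, eBayes with a mean trend), with two-sided tests, Benjamini-Hochberg adjustment within each of 5 contrasts and a threshold of 0.05. All adjusted p-values here are limma's. The procedure was tested on simulated data. The members and lists were chosen with earlier results of these data known. All members were named in every comparison. Of the 8 lists up to 4 genes a comparison were eligible by lowest adjusted p, and a gene so named may be given in another comparison. The 3 genes nearest each member in profile were also eligible. Promoter windows came from RefSeq (GRCm38.p6). Alternatives were other pseudocounts, filters, scalings, limma voom on recovered reads, library weights, fits of only the groups compared, a replicate block and leaving out each library. R 4.3.3, limma 3.58.1, Python 3.11.15, numpy 2.4.6, pandas 2.3.3 and matplotlib 3.10.9 were used.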

Additional observations from a re-analysis of the deposited data

Results flagged for a closer look

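In 7 of the 10 genes the MC903 response differed between the labels by the test of that difference (limma, knockout label minus wild type, log2 scale). The responses were smaller or more negative under the knockout label for Junb at -2.20, Fosb at -1.86, Egr1 at -1.55, Fos at -1.21, Egr2 at -0.95 and Egr3 at -0.95. Nr4a1 differed in the other direction, at 1.29. Of all genes tested 39.7% passed the same test. The call was lost in 13 of 21 other settings for Fos, 7 of 20 for Fosb and 7 of 21 for Nr4a1. For Egr3 and Egr2 it was lost in 2 and 1 of 21, and for Junb and Egr1 in 0. Without untreated replicate 2 labelled knockout 3 members were called lower and 1 higher, with 33.0% of all genes called. In Egr1 the fitted response was above 0 in wild type, where it was not called, and below 0 under the label, where it was. In Fosb and Nr4a1 it was below 0 under both.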

How the results depend on the processing

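Over 845 repeats of the members' results, 730 kept direction and side of the threshold, 71 lost a call, 24 gained one and 20 changed sign, none of the last being called in the reported fit; the causes were not tested. The count of members that fell with MC903 in wild type, 2 as reported, was 1 with a pseudocount of 1, no filter, the filter of FPKM at least 1 in at least 6 libraries (which leaves out Fosb) or the replicate block, and 4 under TPM scaling. Of all 17646 genes 8430 were called lower under TPM scaling, against 5351 in the reported fit. In the other settings, in that order, it was 5338 of 17646, 5705 of 33270, 4569 of 14151 and 5366 of 17646. Under TPM scaling the members that rose under the knockout label numbered 1, against 16.3% of all genes. Those higher and lower under the label after MC903 numbered 2 and 1, against 6763 and 2417 of 17646 genes. Those with a response difference called below 0 numbered 3, against 2085 of 17646 genes. Limma voom gave 2 higher under the label after MC903, against 29.7% of all genes. In untreated skin a fit of only the groups compared called 0 members, no filter 4 and library weights 8, with 3.47%, 4.17% and 37.1% of all genes called against 11.7%. For the response difference no filter left 0 members called above 0 and 4 below 0, against 3118 and 3159 of 33270 genes. Weights gave 8 below 0, against 4563 of 17646 genes.

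With each library left out in turn, the wild-type response kept 4 higher and had 1 to 2 lower. Of all 17646 genes 5273 to 5764 were called higher there and 4896 to 5466 lower. Under the knockout label 1 to 4 rose and 4 fell, against 3603 to 4024 and 3181 to 3633 of all genes. In untreated skin 3 to 5 were higher and 0 lower, against 491 to 2115 and 261 to 1447 of all genes. The reported fit called 1261 and 803 of all genes in untreated skin. After MC903 1 to 2 members were higher and 2 to 3 lower, against 4037 to 4225 and 3852 to 4245 of all genes. For the members 0 to 1 responses were larger and 3 to 7 smaller, against 2925 to 3975 and 2841 to 4028 of all genes.

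Signs changed as follows, with the range over left-out libraries given as such. In the wild-type response Egr1 was -0.18 under TPM scaling, Jun 0.010 with library weights and -0.25 to 0.068 over left-out libraries, and Atf3 -0.54 to 0.22 over them. In untreated skin Egr2 was -0.034 with weights and -0.034 to 0.30 over left-out libraries. After MC903 Egr1 was 0.21 under TPM, 0.013 by total reads, 0.016 in voom and -0.24 to 0.060 over left-out libraries. Fosl1 was 0.29, 0.085 and 0.11 in those 3 settings, 0.030 with weights and -0.33 to 0.35 over left-out libraries, and Jun was -0.019 to 0.20 over them. The response difference of Atf3 was 0.012 under TPM and -0.70 to 0.068 over left-out libraries.

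TPM scaling shifted the median of all genes by -0.43, -0.18, 0.01, 0.27 and 0.26 in the order of the report. The share of called genes that were higher moved from 51.8% to 26.7% and from 52.1% to 33.5% in the MC903 responses, from 49.8% to 73.7% between treated groups and from 50.3% to 72.2% in the interaction. Scaling by total reads gave 40.0% in the wild-type response, 49.7% against 61.1% in untreated skin and 61.9% in the interaction. Limma voom called 11102, 8511, 2451, 9120 and 7214 genes.

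Same-numbered libraries showed no clear shared deviation (r of -0.13 to 0.17, 3 of 18 pairs over 0.1, and 4 of 12 libraries closest to their own number). Pairing by number is not stated in the labels, and these values did not detect it but cannot exclude it. With the replicate block the members called higher and lower were 4 and 1, 3 and 4, 6 and 0, 1 and 3, and 1 and 7. Of all 17646 genes that fit called 5810 and 5366, 4401 and 4070, 1351 and 773, 4611 and 4693, and 3534 and 3512.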

Other observations

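Among 12679 genes with a mean FPKM of at least 1 and a name that is not a predicted one, those with the most similar profile to each member over the 12 libraries were found by the root mean square difference of centred log2(FPKM + 0.5). Egr3 was nearest to Rhbdf2 at 0.13, and the profile of Egr3 itself had a root mean square of 0.60. Jun was nearest to Sox4 at 0.14 (itself 0.36), Egr2 to Lhx2, a hair follicle stem cell factor, at 0.15 (itself 0.53), and Junb to Ttc22 at 0.28 (itself 1.28). Nr4a1 was nearest to the basement membrane gene Nid2 at 0.30 (itself 0.93), Fosl1 to the kinase gene Plk3 at 0.33 (itself 1.05), Atf3 to Irf4 at 0.34 (itself 0.63) and Egr1 to Apol7c at 0.34 (itself 0.67). Fos and Fosb had more distant nearest genes, Kcnk6 at 0.38 (Fos itself 0.86) and Mfap4 at 0.54 (Fosb itself 1.30). These values describe the 12 libraries, which share 4 groups, and carry no test.

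ATF4 is known to induce Atf3. Of 11 genes of the ATF4 stress response 9 rose and 1 fell with MC903 under each label, while Atf3 was called under neither. Those that rose included Asns, the asparagine synthetase gene, by 2.07 (adjusted p = 3.7e-07) in wild type and 2.09 (adjusted p = 1.2e-06) under the knockout label. Slc7a11, a cystine transporter gene, rose by 2.49 and 2.47. Atf3 stood at -0.21 and -0.48 on the same scale.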
